A study of Homo sapiens with 6 samples.

Results

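The 44 genes described here encode proteins of the large (60S) subunit of the cytosolic ribosome, from RPLP0, RPLP1 and RPLP2 to RPL41. They were taken by symbol as protein-coding rows, with their pseudogenes left out, and all 44 were found among the 60617 genes of the count table. RNA of NCI-H1299 cells, a human non-small-cell lung cancer line, was sequenced in 6 libraries. In 3 libraries, titled Sh1, FuHsi was knocked down; the other 3, titled Puro, are labelled wild type and are called control here. The stated purpose was to look for a function of FuHsi in the nucleolus. The labels spell out neither Sh1 nor Puro, name a single knockdown construct and do not say whether replicates came from separate cultures, so the p-values reflect spread among these libraries only, and that spread may be technical. No row carries the name FuHsi, so the depth of its knockdown was not analysed here.

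The large subunit holds the peptidyl transferase centre, where peptide bonds form, and the tunnel through which the new protein leaves. Its proteins are made in the cytoplasm, carried into the nucleus and assembled with ribosomal RNA in the nucleolus. RPLP0 carries pairs of the acidic proteins RPLP1 and RPLP2 and, with RPL12, forms the stalk that recruits elongation factors. RPL5 and RPL11 join the 5S RNA to form the 5S ribonucleoprotein particle (RNP), which is built into the subunit as a unit. Ribosomal protein mRNAs are known for a 5′ terminal oligopyrimidine (TOP) tract, a C followed by further pyrimidines, through which mTOR and LARP1 control their translation and stability.

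Start sequences are shown first because this tract is what members of the group are known to share. RefSeq promoters on GRCh38.p14 covered 37 of the 44 genes, matched by symbol. Each line gives 8 bases before and 20 bases from the annotated start, 5′ to 3′ on the gene's strand, with the longest run of C and T in capitals. Where several starts are annotated, the start with the longest tract was taken. The first 3 are the stalk proteins, the fourth had the largest fall, and the last 4 are members with contrasting starts named below.
RPLP0: cgcgaggCCCTTCTCTCgccaggcgtcc
RPLP1: cgcgagagCCCCTTTCCTCagctgccgc
RPLP2: ggcgCCTTCCTTTTCCTCCCTgtcgcca
RPL9: atgacgacagacgTTCTTTCTTTgctgc
RPL11: tccgCTTTCTCTTCCTgctctccatcat
RPL3: cgaccggCCTCTaccggcgggatttgat
RPL39: gccagCTTCCCTCCTCTTCCTTTCTCCg
RPL17: ccctaagcagcctgaggtgagtgTTTCT
The windows lie at chr12:120201092-120201119 on the minus strand for RPLP0, chr15:69452810-69452837 on the plus strand for RPLP1 and chr11:809959-809986 on the plus strand for RPLP2. They lie at chr4:39458903-39458930 on the minus strand for RPL9, chr1:23691798-23691825 on the plus strand for RPL11 and chr22:39319604-39319631 on the minus strand for RPL3. Those of RPL39 and RPL17 lie at chrX:119791611-119791638 and chr18:49492446-49492473, both on the minus strand. Counted from the annotated start, the unbroken tract beginning with C was 11 bases long in RPLP1, 13 in RPLP2 and 19 in RPL39, against 4 in RPL3 and none in RPL9 or RPL17.

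Library totals were 27900051, 24231515 and 24265216 counts in the knockdown and 34306849, 34196300 and 30735547 in control, so every knockdown library was shallower. Levels are library-scaled counts (CPM) with edgeR's trimmed-mean factors (TMM). Every fold change is the log2 of the knockdown level over the control level. Of 17223 genes tested, 30.9% were lower and 30.7% higher at an adjusted p under 0.05 in edgeR's quasi-likelihood test with Benjamini-Hochberg adjustment. In total 61.6% of tested genes were called. Of the epithelial markers, KRT8 averaged 320.0 CPM in the knockdown and 494.2 CPM in control, and KRT18 averaged 320.3 CPM in the knockdown and 334.6 CPM in control. KRT7 averaged 4.10 CPM in the knockdown and 1.24 CPM in control. NKX2-1, NAPSA, SFTPB, KRT19, EPCAM and CDH1 averaged under 1 CPM in both groups, and SFTPC and SFTPD were at 0. Summed levels of 4 leukocyte markers were 1.25 to 1.49 CPM in the knockdown and 0.247 to 0.734 CPM in control, and those of 5 fibroblast markers 2.839 to 4.497 CPM in the knockdown and 1.63 to 2.74 CPM in control. Those of 3 endothelial markers were 1.14 to 2.01 CPM in the knockdown and 1.04 to 1.49 CPM in control; the part of such transcripts in the results was not tested.

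Large-subunit mRNAs fell almost as a block, with 43 of the 44 lower in the knockdown, against 30.9% of tested genes, and RPLP2 alone higher. All 44 passed the filter on low counts, and in all 44 the knockdown and control libraries did not overlap, as in 65.3% of tested genes. The median fold change was -0.32 on the log2 scale, with quartiles of -0.44 and -0.25, against a median of 0.03 over all tested genes. Of the 44, 39 were in the most abundant of 10 equal classes of tested genes, where 66.5% were lower and the median was -0.25. The shift was narrow: 36 members lay between -0.6 and -0.2, and RPL9 was the only member lower by 2-fold or more. Scaled by library size alone, 36 members were called lower, against 22.4% of tested genes, and RPLP2 again higher, against 40.6%. RPL10, RPL19 and RPL39 then stood just above 0, at 0.02, 0.05 and 0.03, and were not called. Nor were RPL22 and RPL28, at -0.03 each, RPL30 at -0.08 and RPL41 at -0.19. That scaling moved the members' median to -0.17 and the all-gene median to 0.18. In bulk samples, fewer cells with a given transcript and less of it per cell cannot be told apart.

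**Figure D1:**
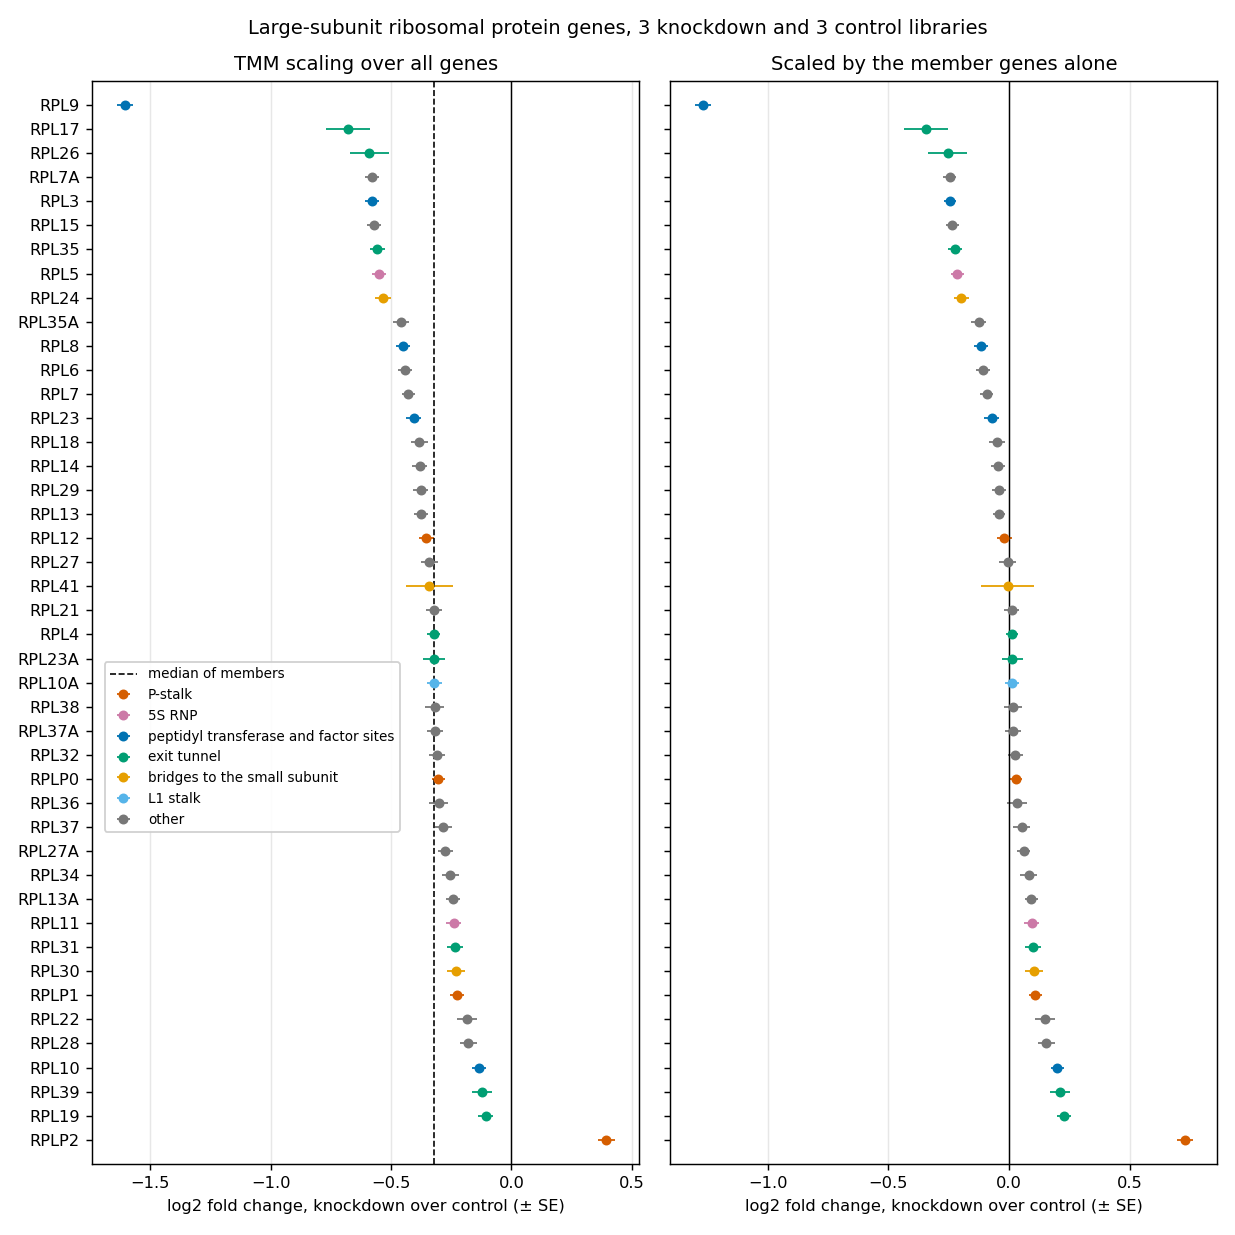
Log2 fold change, knockdown over control, of each large-subunit gene on the horizontal axis, with bars of 1 standard error. Genes are ordered by TMM-scaled fold change and coloured by role. The left panel uses TMM scaling over all genes, the right panel scaling by the member genes alone. In the left panel 43 genes lie left of 0, most between -0.6 and -0.2, while RPL9 stands at -1.60 and RPLP2 at 0.39.

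The block took up less of each library. Its mRNAs held 2.48%, 2.52% and 2.48% of all counts in the knockdown, against 2.90%, 2.89% and 2.96% in control, or means of 2.49% ± 0.0197 in the knockdown and 2.92% ± 0.0382 in control (SD, n = 3 each). This share needs no scaling factor, and its groups did not overlap. Without RPL9 the shares were 2.47% in the knockdown and 2.86% in control. The mitochondrial genome held 3.50% of counts in the knockdown and 3.39% in control, and counted without it the block's shares were 2.58% in the knockdown and 3.02% in control.

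Stalk genes moved in both directions. RPLP2 measured 315.3, 341.7 and 323.6 CPM in the knockdown, against 249.4, 241.9 and 255.2 CPM in control. Every knockdown library was above every control library, a change of 0.39 ± 0.03 (SE; edgeR's quasi-likelihood test, adjusted p = 2.29e-15). Its partner RPLP1, with which it dimerises, measured 847.7, 909.1 and 874.6 CPM in the knockdown, against 1025, 1017 and 1035 CPM in control, a change of -0.23 ± 0.03 in the other direction. RPLP0, the anchor of the stalk, measured 1836, 1937 and 1867 CPM in the knockdown, against 2277, 2301 and 2387 CPM in control (-0.30 ± 0.03). RPL12, at the stalk base, measured 540.4, 521.7 and 557.4 CPM in the knockdown, against 678.8, 673.2 and 718.0 CPM in control (-0.35 ± 0.03). All 3 falls were called, and no knockdown library of these genes reached the control range.

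Ratios of raw counts within a library do not depend on how libraries are scaled. For every RPLP1 read there were 0.372, 0.376 and 0.370 RPLP2 reads in the knockdown, against 0.243, 0.238 and 0.247 in control, a ratio 53.6% higher. The RPLP2 to RPLP0 ratio averaged 0.174 ± 0.00238 in the knockdown and 0.107 ± 0.00225 in control (SD, n = 3 each), 62.2% higher. The stalk genes without RPLP2 kept close proportions. RPLP1 to RPLP0 was 0.467 ± 0.00417 in the knockdown and 0.442 ± 0.00839 in control, and RPL12 to RPLP0 was 0.287 ± 0.0158 in the knockdown and 0.297 ± 0.00424 in control, where the groups overlapped. Both RPLP2 ratios, and RPLP1 to RPLP0, gave a two-sided exact permutation p of 0.1, the smallest that 3 against 3 libraries allow; it was 0.5 for RPL12 to RPLP0. Adjusted over the 5 ratios computed, these were 0.125 and 0.5. Ratios of counts are not ratios of molecules, since the transcripts differ in length.

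**Figure D2:**
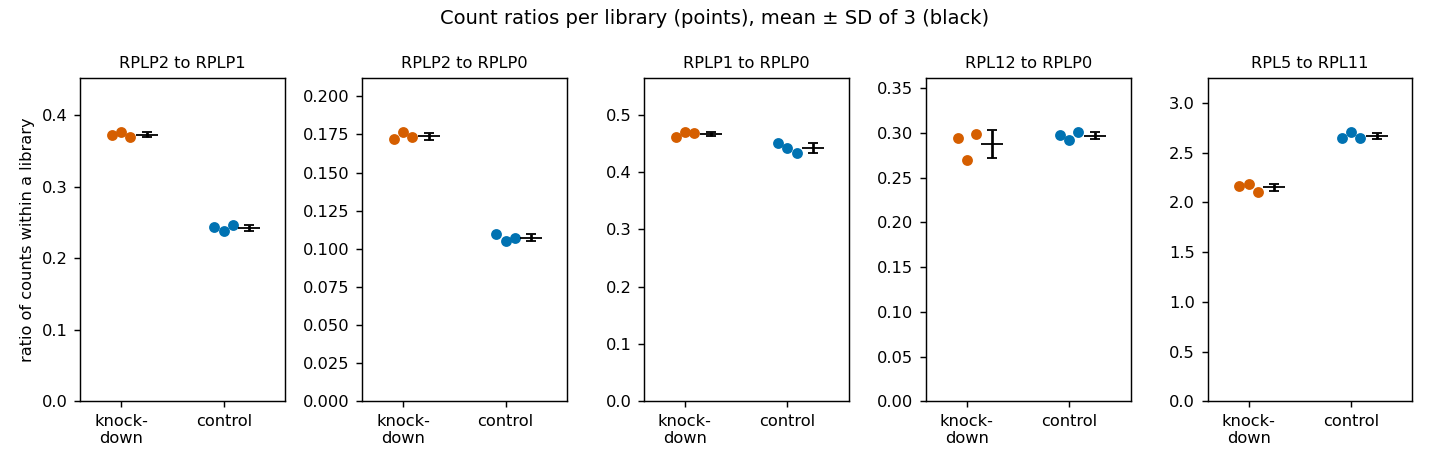
Ratio of raw counts of the named gene pairs in each library, knockdown points left of control points, on axes that start at 0. RPLP2 to RPLP1 sits at 0.370 to 0.376 in the knockdown and 0.238 to 0.247 in control, while RPL12 to RPLP0 overlaps between the groups.

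Exons of RPLP2 share 12.3% of their bases with other genes, mainly PIDD1 on the opposite strand and the small nucleolar RNA SNORA52. PIDD1 averaged 19.6 CPM in the knockdown and 18.7 CPM in control and was not called, with a fold change of 0.07 (edgeR's quasi-likelihood test, adjusted p = 0.483), and SNORA52 was at 0 in every library. Reads inside RPLP2 may not have been assigned to SNORA52, so its 0 does not show its level. Whether reads were counted by strand is not given in the sources used here.

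RPL9 stood apart at the other end. This protein lies at the base of the factor-binding region of the subunit. It measured 191.0, 197.4 and 184.9 CPM in the knockdown, against 571.8, 572.5 and 597.8 CPM in control. The change was -1.60 ± 0.03 (SE; edgeR's quasi-likelihood test, adjusted p = 2.89e-44), and the level fell by 67.1%, with no library near the other group. RPL9 made up 0.784% to 0.821% of the block's counts in the knockdown and 1.88% to 1.90% in control. Its 19 pseudogene rows held 0.296% of the counts of RPL9 and those rows together in the knockdown and 0.112% in control.

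A stretch of the RPL9 3′ untranslated region (UTR) is shown because 7-base words in it marked lower genes in an earlier scan of these same fold changes; the words are thus no independent evidence. The word CTATTGA was searched on the transcript strand and is in capitals.
RPL9: caataaaagacCTATTGAtttggaccttc
The stretch lies at chr4:39454132-39454160 on the minus strand of GRCh38, in the annotated 3′ UTR. The word begins 4 bases after an AATAAA, the usual polyadenylation signal, and ends 19 bases before the annotated transcript end. RPL9 alone of the 44 carried CTATTGA in its 3′ UTR, as did 6.55% of the 13324 tested genes scanned, whose median fold change was -0.12 against -0.02 for genes without it. The overlapping words CCTATTG and ACCTATT, both within the stretch shown, also occurred in the 3′ UTR of RPL37, and ACCTATT in the coding sequence of RPL21. RPL37 changed by -0.28 and RPL21 by -0.32, beside a median of -0.32 for the block. Whether any of these words bears on the levels was not tested. AATAAA itself was in the 3′ UTR of 35 members and of 73.1% of scanned genes.

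The other proteins near the catalytic and factor sites fell less than RPL9. RPL3, which reaches into the peptidyl transferase centre, measured 1123, 1164 and 1096 CPM in the knockdown, against 1657, 1683 and 1716 CPM in control (-0.58 ± 0.03). RPL8, which also contacts the centre, changed by -0.45, and RPL23, which faces the small subunit, by -0.41. RPL10, whose loop touches the bound transfer RNA and which is placed last, in the cytoplasm, measured 930.3, 954.9 and 942.8 CPM in the knockdown, against 1033, 1008 and 1064 CPM in control (-0.13 ± 0.03). Its libraries lay close together without overlap. RPL10 has 55.5% of its exonic bases in common with neighbours, the most of any member, of which DNASE1L1 averaged 9.10 CPM in the knockdown and 8.13 CPM in control.

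The 5S RNP pair fell unequally. RPL5 measured 734.2, 722.0 and 718.0 CPM in the knockdown, against 1049, 1062 and 1071 CPM in control (-0.55 ± 0.03; edgeR's quasi-likelihood test, adjusted p = 5.96e-25). RPL11 measured 339.0, 331.1 and 340.2 CPM in the knockdown, against 395.8, 392.5 and 405.0 CPM in control (-0.24 ± 0.03; adjusted p = 1.76e-09 in the same test). In every library RPL5 was the more counted of the pair, but by less in the knockdown. The count ratio of RPL5 to RPL11 averaged 2.15 ± 0.0370 in the knockdown and 2.67 ± 0.0334 in control (SD, n = 3 each), 19.3% lower, with an exact permutation p of 0.1, the smallest possible, and 0.125 after adjustment.

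**Figure D3:**
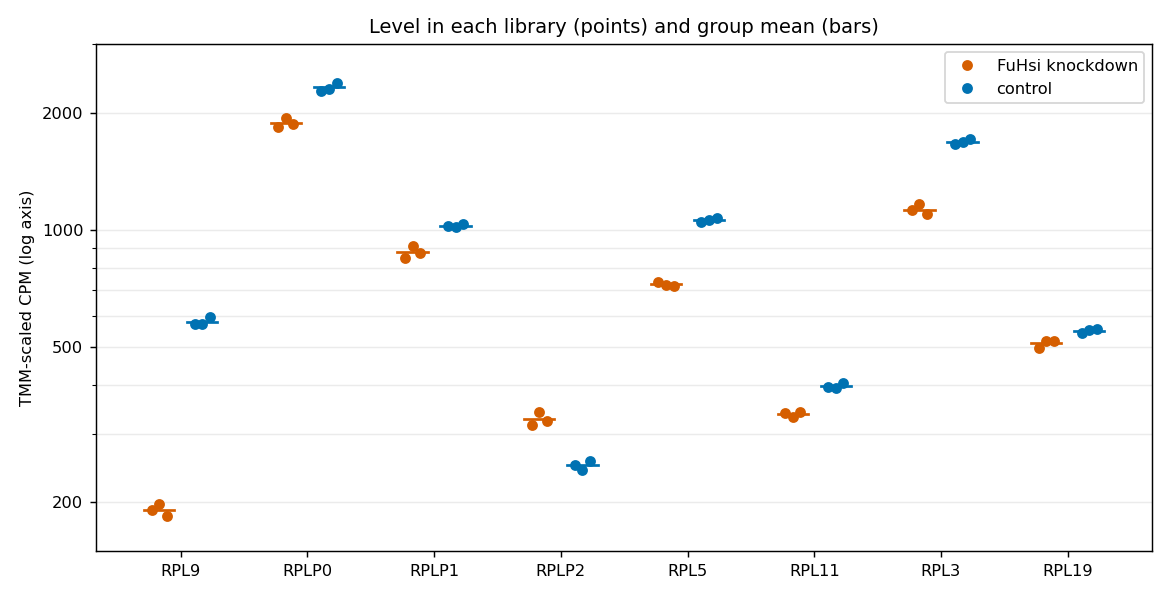
TMM-scaled CPM (log axis) of 8 large-subunit genes in each library, knockdown points left of control points, with a bar at each group mean. RPLP2 is the only gene shown whose knockdown points lie above its control points, and RPL9 has the widest gap.

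Genes for the exit tunnel and its surroundings, 8 in all, were all lower, with a median of -0.32. RPL17 had the second largest fall of the 44 when its pseudogenes are left out and measured 13.6, 15.7 and 12.6 CPM in the knockdown, against 21.9, 21.8 and 23.4 CPM in control (-0.68 ± 0.09). RPL26, at the tunnel mouth, measured 19.07, 19.04 and 16.13 CPM in the knockdown, against 26.58, 26.10 and 29.11 CPM in control (-0.59 ± 0.08). These were the least counted members, with the largest standard errors beside RPL41. RPL35, a docking protein at the tunnel mouth, changed by -0.56, RPL4, which lines the tunnel, by -0.32, and RPL31 by -0.24. RPL23A, where the signal recognition particle docks, measured 78.4, 82.8 and 78.1 CPM in the knockdown, against 97.2, 100.4 and 101.4 CPM in control (-0.32 ± 0.04). The smallest falls of the block were also in this group. RPL39, whose short protein lines the lower tunnel, measured 112.2, 122.1 and 115.0 CPM in the knockdown, against 128.7, 126.7 and 124.8 CPM in control (-0.12 ± 0.04; edgeR's quasi-likelihood test, adjusted p = 0.00781). RPL19, at the tunnel rim and near the small subunit, measured 497.0, 518.3 and 518.3 CPM in the knockdown, against 542.5, 552.5 and 556.3 CPM in control (-0.11 ± 0.03; adjusted p = 0.00191 in the same test). The call of RPL39 was lost without knockdown replicate 1, where the change was -0.10 (adjusted p = 0.0517).

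Bridge proteins, which join the subunits, and the L1 stalk protein RPL10A, which guides spent transfer RNA out, were lower as well. RPL10A changed by -0.32 and RPL24 by -0.53. RPL30 measured 197.0, 207.7 and 215.9 CPM in the knockdown, against 244.7, 230.8 and 253.0 CPM in control (-0.23 ± 0.04). RPL41, the smallest ribosomal protein, measured 243.3, 200.2 and 238.8 CPM in the knockdown, against 280.4, 311.4 and 272.5 CPM in control (-0.34 ± 0.10; edgeR's quasi-likelihood test, adjusted p = 0.0345). The call of RPL41 was lost with upper-quartile factors, where the change was -0.28 (adjusted p = 0.0659), and with library size alone (-0.19, adjusted p = 0.196). It was the least even member across control replicates, and its standard error was the largest of the 44.

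Each of the other 21 members, mostly proteins of the outer shell, was lower, from -0.58 to -0.18 with a median of -0.32. RPL7A, on the subunit surface, measured 1167, 1223 and 1131 CPM in the knockdown, against 1716, 1734 and 1811 CPM in control (-0.58 ± 0.03), and RPL15 changed by -0.57. RPL13A, known as a subunit of an interferon-induced complex that silences inflammatory mRNAs, measured 1038, 1088 and 1056 CPM in the knockdown, against 1229, 1237 and 1295 CPM in control (-0.24 ± 0.03). RPL32 measured 343.6, 367.5 and 375.4 CPM in the knockdown, against 450.7, 436.3 and 457.6 CPM in control (-0.31 ± 0.03). These 4 fell by unequal amounts, and no library broke the order of the groups. RPL36 measured 132.6, 146.5 and 133.6 CPM in the knockdown, against 177.5, 166.7 and 164.5 CPM in control (-0.30 ± 0.04). RPL38, known from mice for its part in translating Hox mRNAs, measured 144.1, 138.6 and 150.1 CPM in the knockdown, against 182.1, 173.9 and 183.7 CPM in control (-0.32 ± 0.04). RPL22, deleted or mutated in some cancers, measured 108.6, 109.0 and 104.6 CPM in the knockdown, against 120.4, 124.9 and 120.8 CPM in control (-0.18 ± 0.04). RPL28 had the smallest fall of these 21. The remaining 13 were RPL6, RPL7, RPL13, RPL14, RPL18, RPL21, RPL27, RPL27A, RPL29, RPL34, RPL35A, RPL37 and RPL37A, at -0.46 to -0.25.

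Scaling the libraries by the 44 genes alone asks which members moved more or less than the block. By that measure 14 members lay below the common shift and 12 above it at an adjusted p under 0.05, against 13.1% of tested genes below and 53.4% above. The largest departures below were RPL9 at -1.27 ± 0.03, RPL17 at -0.34 ± 0.09, RPL26 at -0.25 ± 0.08 and RPL7A at -0.24 ± 0.03. Above it were RPLP2 at 0.73 ± 0.03, RPL19 at 0.23 ± 0.03, RPL39 at 0.21 ± 0.04 and RPL10 at 0.20 ± 0.03. RPL17 and RPL26 were also the least counted members. RPL5 lay below at -0.21 and RPL11 above at 0.10. A change of scaling shifts both genes alike, so this restates their unequal fall. Of the 18 members with a bacterial counterpart, 9 were below and 3 above, and of the 24 found in archaea or eukaryotes only, 5 were below and 7 above. RPLP1 and RPLP2, whose bacterial counterpart is unrelated in sequence, were kept out of both classes and lay above. Departures were smaller than 0.1 in 23 members.

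Fold change ran with abundance over all genes. When tested genes were ordered by mean level and split into 10 equal classes, the class median ran from 0.36 in the least abundant to -0.25 in the most abundant, where 66.5% of genes were called lower. That top class held 39 of the 44 genes, with a median of -0.32. Cubic trends on exonic length (all annotated exons of a gene merged), GC content and mean level were then removed across 16997 genes. The members' median was then -0.04, against -0.05 over all those genes. Of the 44, 26 lay below 0, and so, by that median, did most of all those genes. Across members, fold change and log2 coding length had a Spearman rho of -0.405 (n = 44, all from the same 6 libraries). The Pearson r of that pair was -0.253. Spearman rho was -0.198 with mean level, 0.127 with GC content, -0.221 with the number of pseudogene rows and 0.0244 with exonic overlap.

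**Figure D4:**
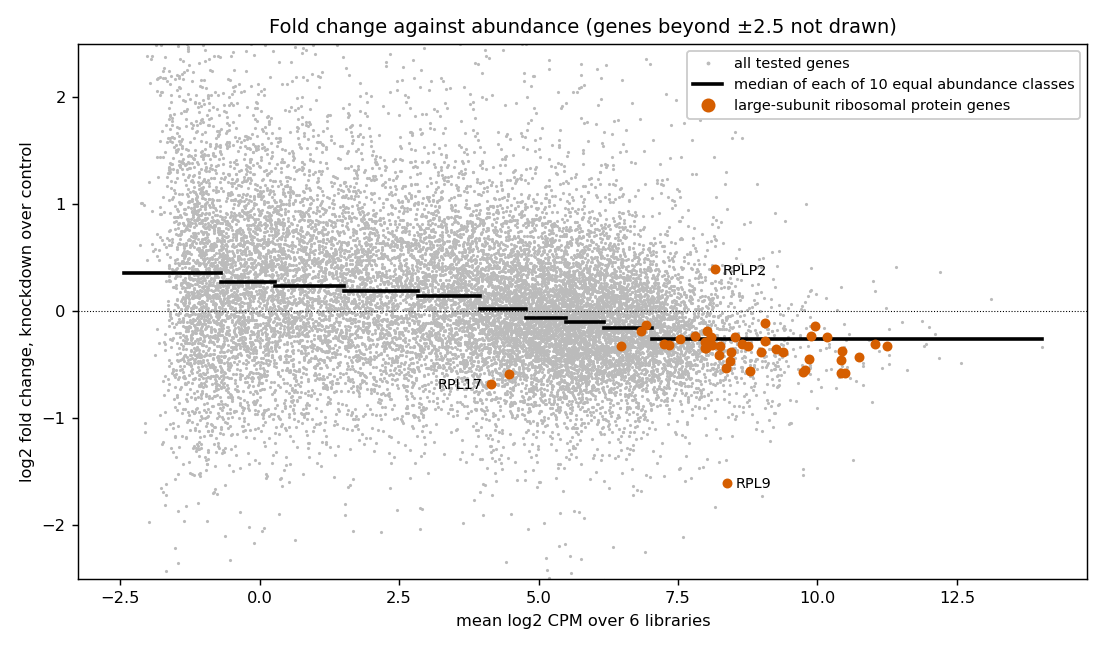
Log2 fold change, knockdown over control, against mean log2 CPM over 6 libraries for all tested genes (grey), with the median of each of 10 equal abundance classes (black) and the large-subunit genes (orange). 39 of the 44 lie in the most abundant class, whose median is -0.25; RPL9 lies far below the line and RPLP2 above it.

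Per kilobase of coding sequence, levels spread widely in both groups. RPL41, with 78 coding bases, was highest at 2916 CPM per kilobase in the knockdown and 3694 in control, followed by RPLP1 at 2542 in the knockdown and 2973 in control and RPL7 at 1992 in the knockdown and 2680 in control. RPLP2, the partner of RPLP1, stood at 939 in the knockdown and 715 in control. The lowest was RPL17, at 25.2 in the knockdown and 40.3 in control. Next came RPL26, at 41.3 in the knockdown and 62.3 in control, and RPL23A, at 169 in the knockdown and 212 in control. These are levels on the coding length alone, so reads on untranslated parts raise those of short genes. RPL17, RPL26 and RPL23A also share exons with same-strand genes listed at 0, as given below.

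In some members counts on annotated pseudogenes weighed against the gene's own. Of the counts of RPL17 and its 49 pseudogene rows together, those rows held 39.8% in the knockdown and 32.9% in control, and with them included the change was -0.53 instead of -0.68. RPL17 then no longer ranked second, since RPL3, RPL7A and others fell further. For RPL23A the rows held 25.2% in the knockdown and 24.7% in control, for RPL26 10.9% in the knockdown and 8.49% in control, and for RPL41 11.5% in the knockdown and 11.9% in control. For RPL13, which was well counted, they held 9.82% in the knockdown and 9.46% in control. How reads that align to several places were treated is not given in the sources used here, so reads could be split between these genes and their copies. The 1037 pseudogene rows of all members together held 0.0392% of counts in the knockdown and 0.0415% in control. Of 71 that could be tested, 23 were lower and 7 higher, against 30.9% lower and 30.7% higher among all tested genes.

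Overlap with other genes on either strand reached 10% of exonic bases in 12 members. RPL17 shares 35.3%, with the RPL17-C18orf32 readthrough and SNORD58 genes, all listed at 0, and RPL30 21.6%, with an antisense gene under 4 CPM in both groups. RPL36 shares 19.5% with HSD11B1L and LONP1. LONP1, a mitochondrial protease, averaged 186.7 CPM in the knockdown and 158.8 CPM in control and rose by 0.23. RPL36, which fell by 0.30, averaged 137.6 CPM in the knockdown and 169.6 CPM in control. RPL32 shares 12.3% with CAND2, which averaged 11.6 CPM in the knockdown and 27.7 CPM in control, and RPL22 10.1% with RNF207, at 6.83 CPM in the knockdown and 4.44 CPM in control. RPL26 shares 14.3% with AC135178.2, a protein-coding gene on the same strand listed at 0. The readthrough gene at RPL17 is on the same strand too. Reads on bases shared by same-strand genes may have been assigned to neither, so the levels of RPL17 and RPL26 may be understated. The same limit holds for RPL7A, RPL10, RPL13A, RPL23A, RPL32 and RPLP2, which overlap same-strand small nucleolar RNA genes listed at 0. It also holds for RPL22, with AL031847.2 listed at 0, and for RPL36, with HSD11B1L. RPL38, RPL13A, RPL7A and RPL23A share 12.4% to 17.7%, with partners that averaged under 10 CPM in both groups. The part of these partners in the members' counts was not tested.

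A C-led run of at least 5 pyrimidines from the annotated start was found in 27 of the 37 members with a start sequence, or 73.0%. The same run, at any annotated start, began 7.33% of 10828 tested protein-coding genes and 5.14% of all 27305 genes with a listed promoter. A run of at least 8 pyrimidines anywhere in the 28-base window was present in 83.8% of members, against 16.6% of those tested genes. Members with the C-led run had a median fold change of -0.32 and ranged from -0.59 to 0.39. The 10 without it (RPL3, RPL4, RPL6, RPL9, RPL10A, RPL15, RPL17, RPL19, RPL27 and RPL32) had a median of -0.39 and ranged from -1.60 to -0.11. Of these, RPL4 and RPL19 have a run of 12 pyrimidines within the window, and RPL9, RPL10A, RPL15 and RPL27 runs of 10. The split thus rests on the exact annotated start and does not part members with a nearby tract from those lacking one. RPLP2, which rose, and its partner RPLP1, which fell, both begin with a long tract in the sequences shown. Of 767 other tested genes with the run, 341 were lower and 224 higher, with a median of -0.10. Over all tested genes, 30.9% were lower and 30.7% higher, with a median of 0.03. Annotated starts need not be those used in these cells.

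Of the small-subunit protein genes, 31 of 33 were lower and 1 higher, with a median of -0.33. RPS27 rose by 0.10. Their share of all counts was 1.80% ± 0.00992 in the knockdown and 2.04% ± 0.0231 in control (SD, n = 3 each). Large-subunit counts were 1.386, 1.390 and 1.379 times the small-subunit counts in the knockdown, against 1.430, 1.435 and 1.438 times in control. This ratio was lower in every knockdown library than in any control library. Of 9 tested further large-subunit genes and paralogs, 7 were lower and none higher, with RPL7L1, which acts in subunit assembly, the lowest at -0.44. For these counts and those of the lists below, the shares over all tested genes were 30.9% lower and 30.7% higher.

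Among dedicated chaperones and nuclear carriers of ribosomal proteins, 15 of 16 were lower and 1 higher, with a median of -0.61. IPO5, an importin, averaged 257.9 CPM in the knockdown and 517.4 CPM in control, and HEATR3, which brings RPL5 into the nucleus, 17.4 CPM in the knockdown and 34.1 CPM in control (-0.97). RRS1 and RPF2, which place the 5S RNP in the subunit, changed by -0.67 and -0.54, AAMP, the counterpart of the yeast chaperone of RPL10, by -0.62, and GRWD1, a chaperone of RPL3, by -0.44. The largest fall was NAP1L1 at -1.05, and the rise was KPNB1, a general importin, at 0.20. In the list around the 5S RNP, 7 of 11 were lower and 1 higher, the nucleolar protein NOP53, at 0.20. Its lower genes include the members RPL5 and RPL11, and HEATR3, RRS1 and RPF2, already counted among the chaperones and carriers.

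Late cytoplasmic maturation factors, which strip the last assembly proteins from the subunit, were mixed, with 6 of 12 lower, 5 higher and a median of -0.14. NMD3, the export adaptor of the large subunit, averaged 122.1 CPM in the knockdown and 53.6 CPM in control, a rise of 1.19, and LSG1 and EFL1, the GTPases that release NMD3 and EIF6, rose by 0.26 and 0.33. EIF6, which keeps the subunits apart, fell by 0.50, its release factor SBDS fell by 0.27, and RSL24D1 had the largest fall at -0.96. SPATA5, the ATPase that starts this stripping, stood at -0.13 and was not called (edgeR's quasi-likelihood test, adjusted p = 0.244). Of 17 other mRNAs known for a TOP tract, 14 were lower and 1 higher, with a median of -0.33. NAP1L1, also on this list, was lowest, EIF4B and NPM1 changed by -1.03 and -0.84, the elongation factor genes EEF1A1 and EEF2 by -0.33 and -0.44, and the noncoding GAS5 rose by 0.12. Of 16 regulators of TOP mRNAs, 11 were lower and 3 higher, with a median of -0.25. LARP1, which binds the TOP end, averaged 464.7 CPM in the knockdown and 746.7 CPM in control (-0.68), EIF4EBP2, an inhibitor of cap-dependent translation, fell furthest at -1.14, and the kinase RPS6KB1 rose most, by 0.25.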

How the data were processed

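The authors deposited raw read counts per Ensembl gene for the 6 libraries. The tools named are STAR 2.7.0d, Trim Galore 0.6.6, DESeq2 1.30.1 and, for counting, featureCounts 2.0.1 on hg38, per the submitters' processing notes. Annotation release, strand setting and the handling of multiply aligned reads were not given in the sources used here. Of 60617 rows, 60261 matched a name table and 58483 matched GENCODE v29, which gave coordinates, coding lengths and overlaps. Library totals were 24231515 to 34306849, and the common biological coefficient of variation was 4.67%.

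In R 4.3.3, edgeR 4.0.16 filtered genes (filterByExpr, minimum count 10), scaled libraries by TMM and ran its quasi-likelihood test (robust, group only). P-values were adjusted over 17223 genes by the Benjamini-Hochberg method, and calls are at an adjusted p under 0.05. Log2 CPM used a prior count of 2.

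The members and lists were chosen with earlier results of these data known, so no test over the list is given. Values in every library are given for the stalk and 5S genes, RPL12 and RPL3, the 3 lowest and 3 highest fold changes, members with at least 10% exonic overlap, the 4 largest departures in each direction and the extremes per kilobase; RPL12 and RPL3 were added after their values were seen, and so were some genes of the lists beyond their largest fall and rise. Same-numbered replicates did not deviate together. Alternatives were 4 other scalings, no filter, DESeq2 1.42.0, a replicate block, each library left out, thinning, pseudogene rows added and trends removed. Protein sequences were not used here. DRG1, whose yeast namesake is another protein, was taken off the maturation list after its value was seen. Some genes of the lists are not reported here.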

Additional observations from a re-analysis of the deposited data

How the results depend on the processing

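Of 660 fold changes of single members under the alternatives, 620 kept their direction and call, 15 lost the call and 25 changed sign. No member changed sign or lost its call with relative log expression factors, no filter, DESeq2, thinning, added pseudogene rows or the replicate block, which called 43 lower and 1 higher; replicate numbers did not pair the libraries (correlations -0.000751, -0.00642 and -0.0235). The members' median of -0.32 was -0.35 with DESeq2, -0.26 with upper-quartile factors, -0.17 with library size alone, -0.0361 with trends removed and 0.0123 with member-only factors, which by construction remove the common shift. Under those factors 14 members were lower and 12 higher, and the sign turned for RPL21 and RPL4 (0.0123 each), RPL23A (0.0137), RPL10A (0.0143), RPL38 (0.0171), RPL37A (0.0182), RPL32 (0.0273), RPLP0 (0.0309), RPL36 (0.0319), RPL37 (0.0531), RPL27A (0.0610), RPL34 (0.0814), RPL13A (0.0935), RPL11, RPL31 and RPL30 (0.10 each), RPLP1 (0.11), RPL22 (0.15), RPL28 (0.16), RPL10 (0.20), RPL39 (0.21) and RPL19 (0.23). With library size alone it turned for RPL10 (0.0193), RPL39 (0.0303) and RPL19 (0.0467), none of which was called, and the calls of RPL22, RPL28, RPL30 and RPL41 were lost. Upper-quartile factors lost the calls of RPL41, RPL39 and RPL19. Leaving out each library gave 42 to 43 lower, 1 higher, a median of -0.35 to -0.32, a share of counts differing by -0.438 to -0.403 percentage points, an RPLP2 to RPLP1 ratio 1.52 to 1.55 times that of control, and 12 to 14 members below and 10 to 12 above the common shift. The scaling sets how many members are called lower. With trends removed, the median of all genes in that fit was -0.0488, beside -0.0361 for the members. RPL9 and RPLP2 kept direction and call under each alternative with a test. Removing trends gives no test.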
